A study of Rattus norvegicus with 4 samples.

Results

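The genes described here are 10 genes of the integrated stress response that centre on the transcription factor ATF4: Atf4, Ddit3, Cebpg, Trib3, Chac1, Sesn2, Asns, Psat1, Phgdh and Slc7a5. They are 10 of 16581 named genes on the array and are read by 12 of 45598 probes and by 31 of 58717 non-control spots per array. The 10 genes were chosen by symbol with their values known, Ddit3 and Cebpg because their signal differed widely between the arrays, so their levels are given as a description and nothing is tested on them in support of a result. RNA came from NR8383 cells, a macrophage line derived from rat lung lavage, that had been incubated with 2 µg/mL of the iron oxide particle NRCWE018 (Fe2O3) for 4 h. Each of 4 exposed cultures, which the study counts as biological replicates, was read on its own Agilent array in a single colour, Cy3, and the 4 arrays shared 1 slide. Unexposed control cultures belong to the study's design and were not analysed here, so no value below is an effect of the particle. Differences between cultures and between places on that slide cannot be told apart.

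The integrated stress response starts when an eIF2α kinase senses a fault: HRI (Eif2ak1) responds to haem shortage and oxidants, PKR (Eif2ak2) to double-stranded RNA, PERK (Eif2ak3) to unfolded protein in the endoplasmic reticulum and GCN2 (Eif2ak4) to uncharged tRNA. Phosphorylated eIF2α slows translation of most mRNAs, while the ATF4 mRNA is translated better because of its short upstream reading frames. ATF4 binds DNA as a pair with another basic leucine zipper protein, often C/EBPγ, the product of Cebpg, at sites called C/EBP-ATF response elements. Its targets supply amino acids and charged tRNAs, and under lasting stress they include CHOP, the product of Ddit3. The arrays measure mRNA, whereas ATF4 is controlled largely at translation, so the Atf4 level does not report the amount of its protein.

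Levels are log2 processed signal relative to the 75th percentile of the same array, so that a value of 1 lies 1 log2 unit above that percentile, and errors are SD with n = 4 arrays. Levels of different probes are not ranked. Likeness of level serves only to pick comparable spots, to choose between probes of a gene and to fit the variance trend of the spread test. The 75th percentile of the processed signal lay between 756.5 on replicate 4 and 1082 on replicate 3, the median local background between 41 and 46, and the share of probes well above background between 37.9% and 41.2%. Replicate 4 was the lowest array in signal and in probes above background. Replicate 4 also had the most spots marked as outliers, 1.62% against 1.13% to 1.21% on the others, and 0 spots were saturated. All 6 macrophage markers (Cd68, Lyz2, Spi1, Csf1r, Fcgr2b and Cd14) were above background on the 4 arrays. Of 9 genes on the array listed as markers of other cell types, Pecam1, listed for endothelium, was above background on all 4 arrays. Ager, listed for lung epithelium, was above background on 1 and the other 7 on none. Whether the Pecam1 signal came from other cells was not tested.

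All 10 genes were above background on all 4 arrays, as were 50.6% of the named genes. The 12 probes were also all above background, with a signal between 2.74 and 842.8 times the local background. The image software's error estimate was 10% to 13.8% of the signal. The median SD of the 10 genes was 0.22, with single values from 0.07 to 0.88, beside a median of 0.18 for all 8385 genes with signal above background on each array. Ddit3 and Cebpg, 2 of the 10, had a range over the arrays of at least 1 on the log2 scale, which 4.34% of all genes had and which is the spread they were chosen for. The other 8 had ranges from 0.15 for Asns to 0.69 for Trib3 and a median SD of 0.20. The 8 genes thus had a median SD near that of all genes, and the 2 widest ranges were those of Ddit3 and Cebpg.

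**Figure D1:**
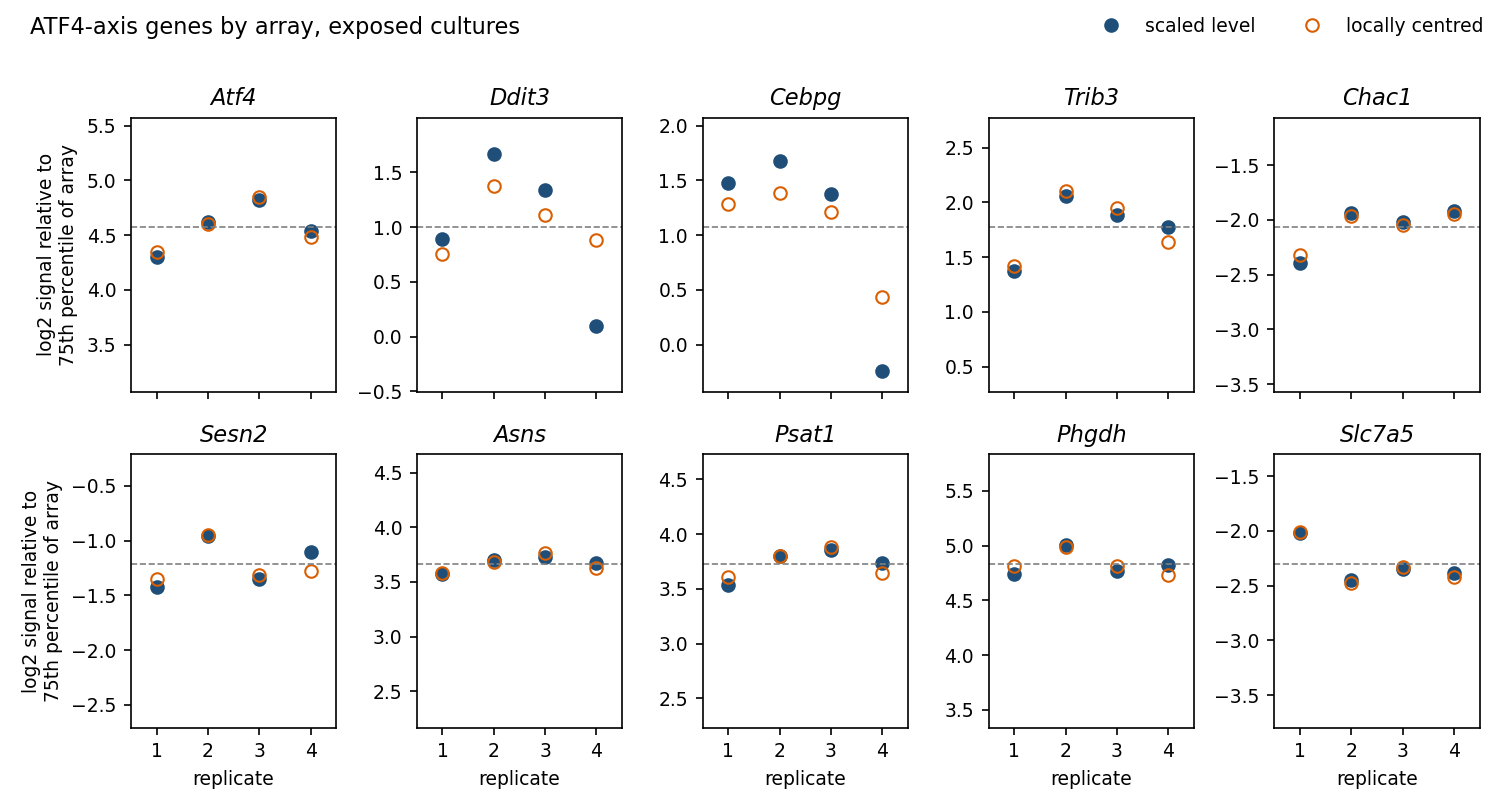
Level of each of the 10 genes (y axis, log2 units from the 75th percentile of the array) on replicates 1 to 4, as scaled (filled) and after subtraction of the local deviation of neighbouring spots (open); the dashed line is the mean of the scaled values and every panel spans the same number of log2 units. On replicate 4 Ddit3 was at 0.10 and Cebpg at -0.24, and after local centring Ddit3 was at 0.88 and Cebpg at 0.44, while the filled and open points of the other 8 genes lie closer together on that array.

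Atf4 encodes the activator itself. Its level (probe A_42_P620762) was 4.30, 4.62, 4.82 and 4.54 on replicates 1 to 4 (4.57 ± 0.22), lowest on replicate 1 and highest on replicate 3. Atf4 has 10 spots per array, whose SD within an array was between 0.03 and 0.11, so the difference between arrays was larger than the scatter of its repeat spots.

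Ddit3 encodes CHOP, a C/EBP-family factor that promotes cell death when stress persists. The level of Ddit3 (probe A_64_P059495) was 0.89, 1.67, 1.34 and 0.10 on replicates 1 to 4 (0.998 ± 0.68), a range of 1.57. Replicates 2 and 3 were high, replicate 1 was lower and replicate 4 was lowest. In processed signal its 1 spot read 1989 ± 199, 3125 ± 313, 2731 ± 273 and 810.3 ± 81.3, where the error is the image software's estimate for that spot. That estimate was 10.0% of the signal on each array and is not a spread of repeat readings. Before that processing, its median pixel signal was 2369, 3570, 3256 and 735 on replicates 1 to 4, with a local background of 46 on replicate 4, so the low value was already present in the raw signal and stood far above background.

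Cebpg encodes C/EBPγ, the dimer partner of ATF4 at amino acid response genes. The level of Cebpg (probe A_64_P025098) was 1.48, 1.68, 1.37 and -0.24 on replicates 1 to 4 (1.07 ± 0.88), a range of 1.92. Replicates 1 to 3 lay close together, and replicate 4 stood apart below them. Its 1 spot read 2979 ± 298, 3151 ± 315, 2803 ± 280 and 639.6 ± 64.2 in processed signal with the image software's error estimate, again 10.0% of the signal. Its median pixel signal on replicate 4 was 634.5 over a local background of 47. Replicate 4 minus the mean of replicates 1 to 3 was -1.20 for Ddit3 and -1.75 for Cebpg on the log2 scale.

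The spots of both genes lie in an area at the centre of the array that was dark on replicate 4. There, 610 of 26675 spots above background on all arrays (2.29%), between rows 163 and 243 of 384 and columns 72 and 98 of 164, had neighbours whose median on replicate 4 was more than 0.5 log2 units below the mean of the other arrays. The same rule found 0 such spots on replicates 1, 2 and 3. The median difference between replicate 4 and the other arrays was -0.76 for these spots and 0.11 for all others, and the median local background there was 47 on replicate 4. Of the 31 spots of the 10 genes, 2 lay in the dark area, the Ddit3 spot at row 210 and column 85 and the Cebpg spot at row 185 and column 82. The Ddit3 and Cebpg probes have no other spot on the array, so neither gene has a reading outside the dark area.

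**Figure D2:**
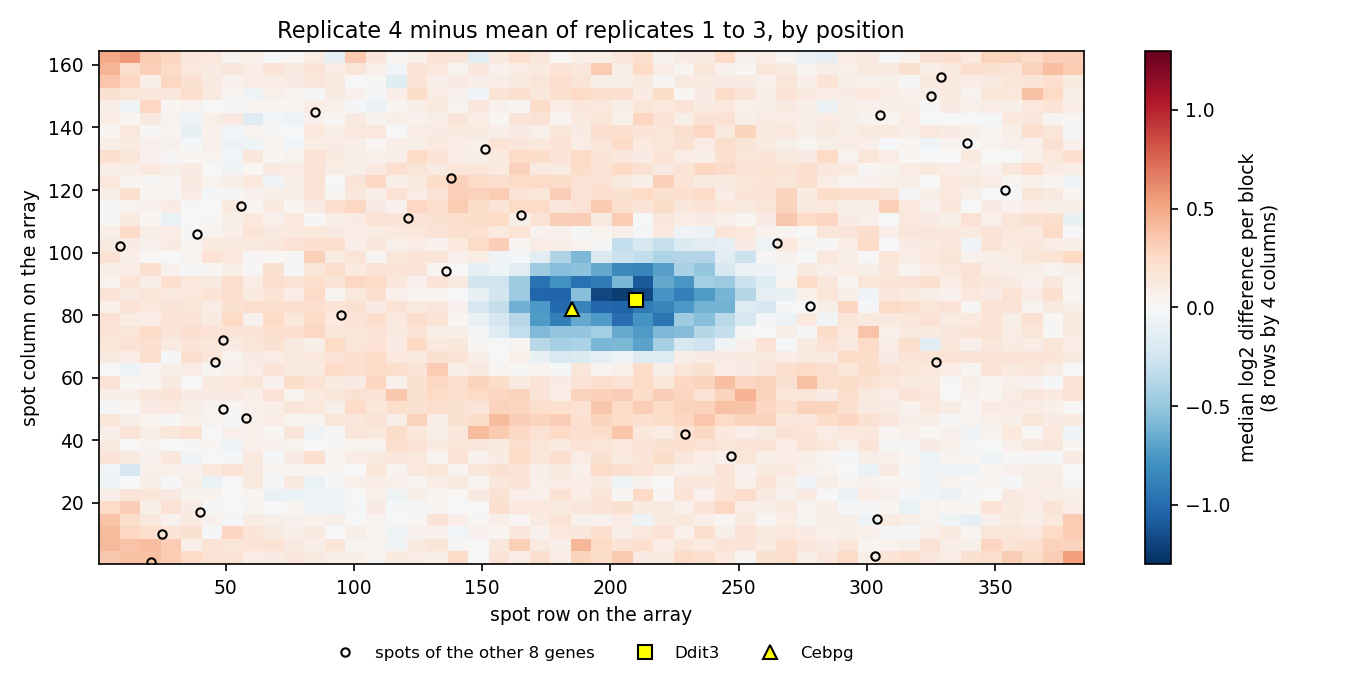
Median log2 difference between replicate 4 and the mean of replicates 1 to 3 over blocks of 8 rows by 4 columns of the array, with the spots of the 10 genes marked. The Ddit3 and Cebpg spots lie inside the central area of negative difference (blue), whereas all spots of the other 8 genes lie outside it.

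The dark area was defined by the difference of neighbouring spots on replicate 4, so the counts that follow describe it and are no independent evidence of it. Of 165 genes whose only spot lay in it, Ddit3 and Cebpg among them, 149 (90.3%) were lowest on replicate 4, against 1139 of the other 8220 genes (13.9%). A further reading comes from probes printed both inside and outside the area, in which the same RNA and the same probe sequence are read at different places. For 228 of 235 such probes the difference between replicate 4 and the other arrays was lower inside than outside, with a median of -0.75 between the places (5th to 95th percentile -1.27 to -0.15). Among these 235 probes, 15 were at least as low inside the area as Ddit3 and 1 was at least as low as Cebpg. These comparisons were chosen after the values of Ddit3 and Cebpg had been seen.

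Another 3 genes of the response gave such a reading from inside and outside. Mthfd2, a mitochondrial enzyme of one-carbon metabolism and a target of ATF4, was at 3.01, 3.38, 3.57 and 2.05 on replicates 1 to 4 at its spot inside the area, against 2.88, 3.09, 3.38 and 3.18 at its spot outside. Replicate 4 was thus the lowest array for Mthfd2 at one spot and not at the other. Nupr1, a stress-induced chromatin protein, was at -2.86, -2.23, -2.68 and -3.65 inside and had medians of -3.10, -2.53, -2.86 and -2.65 over 9 spots outside. Cebpb, a C/EBP factor, was at 5.64, 5.00, 5.28 and 5.17 inside, against medians of 5.46, 4.80, 5.05 and 5.43 over 9 spots outside. In Cebpb the gap between the places was smaller, -0.43, than the -1.34 of Mthfd2 and the -1.27 of Nupr1. The 3 genes are named because they have spots on both sides, a choice made after the area had been found.

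Set against the spots around it, Ddit3 lay near their median on replicate 4, whereas Cebpg lay at their lower edge. Within 10 rows and 5 columns of the Ddit3 spot, 95 spots above background had a median difference of -1.05 between replicate 4 and the other arrays, with a 5th to 95th percentile of -1.67 to 0.77. Of these spots 82 were below 0 and 30 were lower than Ddit3. Among the 15 neighbours within 1 log2 unit of its level, the median was -1.24 and 9 were lower than Ddit3. Around Cebpg, 96 neighbours had a median of -0.90, with a 5th to 95th percentile of -1.45 to 0.35, and 85 were below 0. None of the 96 was as low as Cebpg, and among the 12 of like level, which ran from -1.73 to -0.34, 0 were lower. The lowest of them, at -1.73, lay close to Cebpg at -1.75, and Cebpg was chosen with its spread known. The difference of the gene minus its neighbours' median was -0.15 for Ddit3 and -0.85 for Cebpg.

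**Figure D3:**
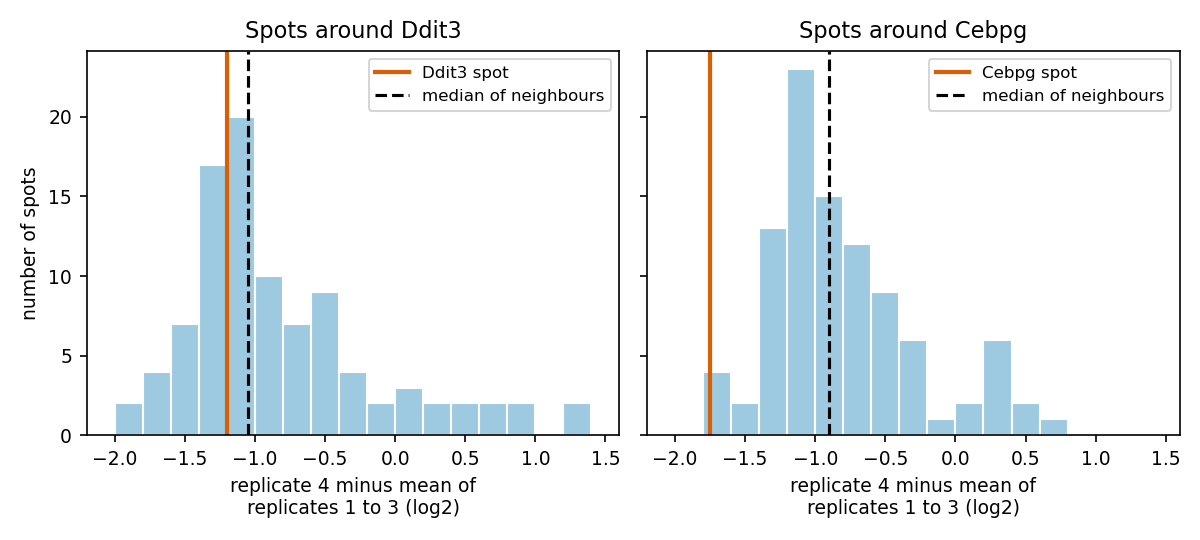
Number of spots (y axis) by log2 difference between replicate 4 and the mean of replicates 1 to 3 (x axis) among neighbours of the Ddit3 spot (left, 95 spots) and of the Cebpg spot (right, 96 spots). The orange line marks the gene and the dashed line the median of its neighbours: Ddit3 at -1.20 lies near the median of -1.05, and Cebpg at -1.75 lies at the lower edge, with 0 neighbours below it.

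With the median deviation of the neighbours subtracted on every array, Ddit3 was at 0.75, 1.37, 1.11 and 0.88 on replicates 1 to 4, an SD of 0.27 and a range of 0.62. Replicate 1 was then its lowest array, and replicate 4 minus the mean of the others was -0.19. Cebpg was at 1.28, 1.38, 1.21 and 0.44, an SD of 0.43 and a range of 0.95, and replicate 4 remained its lowest array (difference -0.85). With a wider window of 20 rows and 10 columns the differences were -0.36 for Ddit3 and -1.01 for Cebpg. No other gene of the 10 had spots whose neighbours were dark: the differences of their neighbours lay between -0.01 and 0.35. How much of the remaining Cebpg difference comes from the culture was not tested, since the gene has 1 spot on 1 such array.

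The genes whose pattern over the 4 arrays was most like that of Ddit3, by the root mean square difference of mean-centred levels among 8375 genes, were Ndufaf4 (0.11), RGD1311745 (0.12) and Cars1 (0.12). Those most like Cebpg were Eme1 (0.04), Uckl1 (0.05) and Nr2c2ap (0.06). All 6 have 1 spot, which lay in or at the edge of the dark area, at most 32 rows and 9 columns from the gene they resembled, with neighbours whose difference on replicate 4 was between -0.96 and -0.41. Eme1, for example, was at -2.10, -1.91, -2.11 and -3.77 on replicates 1 to 4, and Uckl1 was at 1.19, 1.25, 0.98 and -0.59. After local centring the 3 genes most like Ddit3 were Cnih3, Zmat2 and Ddx25, none of which lies in the dark area, and those most like Cebpg were B4galnt1, Etfbkmt and Uckl1. The 6 nearest genes thus changed with the treatment of position, except for Uckl1, and with 4 arrays a close match is a weak description.

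Trib3 and Chac1 are targets of the ATF4 axis whose promoter windows held the letters of the response element, and their sequences are shown for that reason. Trib3 encodes a pseudokinase that binds ATF4 and AKT and damps the response. Its level was 1.37, 2.06, 1.89 and 1.77 on replicates 1 to 4 (1.77 ± 0.29), a range of 0.69. Chac1 encodes an enzyme that degrades glutathione. Its level was -2.39, -1.94, -2.02 and -1.92 (-2.07 ± 0.22). Both were lowest on replicate 1, and replicates 2 to 4 lay closer together. The RefSeq promoter windows of both genes (GRCr8, 250 bases before to 50 bases after the gene's start, on the gene's strand) hold the letters TGATGNAAN of the response element on the opposite strand, in capitals. The Chac1 window is chr3:126795881-126796180 on the plus strand, with the match starting at base -168 from the start, and the Trib3 window is chr3:161275484-161275783 on the minus strand, with the match at -22.
Chac1: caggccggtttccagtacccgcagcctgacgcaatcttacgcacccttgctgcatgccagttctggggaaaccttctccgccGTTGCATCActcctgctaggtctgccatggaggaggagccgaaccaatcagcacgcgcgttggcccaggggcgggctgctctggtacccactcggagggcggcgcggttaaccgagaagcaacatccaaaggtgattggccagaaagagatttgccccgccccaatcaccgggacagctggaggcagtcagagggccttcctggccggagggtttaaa
Trib3: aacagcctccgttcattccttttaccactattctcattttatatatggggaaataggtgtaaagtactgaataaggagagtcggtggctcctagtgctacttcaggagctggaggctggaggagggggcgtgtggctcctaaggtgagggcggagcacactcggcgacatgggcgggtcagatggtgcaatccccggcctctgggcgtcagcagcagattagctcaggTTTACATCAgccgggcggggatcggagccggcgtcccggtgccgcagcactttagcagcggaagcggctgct
On both strands, 1328 of 33469 RefSeq promoters of this length (3.97%) held TGATGNAAN, and 2 of the 10 genes did. The cyclic AMP element TGACGTCA was in 612 promoters (1.83%) and in 0 of the 10, and the endoplasmic reticulum stress element (ERSE) in 22 (0.0657%) and in 0 of the 10. A match is a description of these letters and not a binding site, and the search covered no intron or distal region.

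Sesn2 encodes sestrin 2, which senses leucine and restrains mTORC1. The level of Sesn2 was -1.43, -0.96, -1.35 and -1.10 on replicates 1 to 4 (-1.21 ± 0.22). Replicates 1 and 3 were low, and replicates 2 and 4 were higher.

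The 4 genes of amino acid supply had SDs from 0.07 to 0.19 on the probes that stand for them. Asns, the asparagine synthetase gene and a classical ATF4 target, was at 3.58, 3.70, 3.73 and 3.67 on replicates 1 to 4 (3.67 ± 0.07), a range of 0.15. Its 2 spots per array had an SD of at most 0.04 within an array. Asns was lowest on replicate 1, like Atf4.

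Phgdh and Psat1 encode the enzymes of the first and second steps of serine synthesis. Phgdh was at 4.74, 5.00, 4.77 and 4.83 (4.84 ± 0.12) on a probe with 10 spots, whose SD within an array was 0.04 to 0.06. Its second probe was at 0.39, 0.70, 0.32 and 0.31. Replicate 2 was the highest array on both probes, whereas the lowest was replicate 1 on one and replicate 4 on the other. Psat1 was at 3.54, 3.80, 3.85 and 3.74 (3.73 ± 0.14), lowest on replicate 1. Its second probe was at -4.30, -3.46, -4.18 and -3.27, an SD of 0.52 and a range of 1.04, and was also lowest on replicate 1, but highest on replicate 4 where the first was highest on replicate 3.

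Slc7a5 encodes LAT1, which imports large neutral amino acids such as leucine in a complex with the heavy chain encoded by Slc3a2. The level of Slc7a5 was -2.02, -2.45, -2.34 and -2.39 on replicates 1 to 4 (-2.30 ± 0.19), highest on replicate 1 and lowest on replicate 2. It was the only one of the 10 genes highest on replicate 1. Slc3a2 was at 2.73, 2.93, 2.75 and 2.91, lowest on replicate 1.

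Replicate 1 was the lowest array for 7 of the 10 genes: Atf4, Trib3, Chac1, Sesn2, Asns, Psat1 and Phgdh. Over all genes above background, 29.8% were lowest on replicate 1. Ddit3 and Cebpg were lowest on replicate 4, against 15.4% of all genes, and Slc7a5 on replicate 2, against 20.4%. The highest array was replicate 2 for 5 of the 10 (23.6% of all genes), replicate 3 for 3 (20.1%), and replicate 1 for Slc7a5 (20.0%) and replicate 4 for Chac1 (36.3%). Taken relative to each gene's mean, the median level of the 10 genes was -0.15, 0.15, 0.09 and -0.00 on replicates 1 to 4, beside -0.02, 0.01, -0.03 and 0.07 for all genes. With each array scaled to its median signal in place of its 75th percentile, 4 of the 10 were lowest on replicate 1, against 14.6% of all genes, and the median deviation of all genes on that array was 0.07. The scale thus moved the count of the 10 and the share of all genes in the same direction. After local centring 7 of the 10 were lowest on replicate 1, against 23.1% of all genes, with Ddit3 taking the place of Phgdh. This pattern was described after the values had been seen, and no test of it was made.

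**Figure D4:**
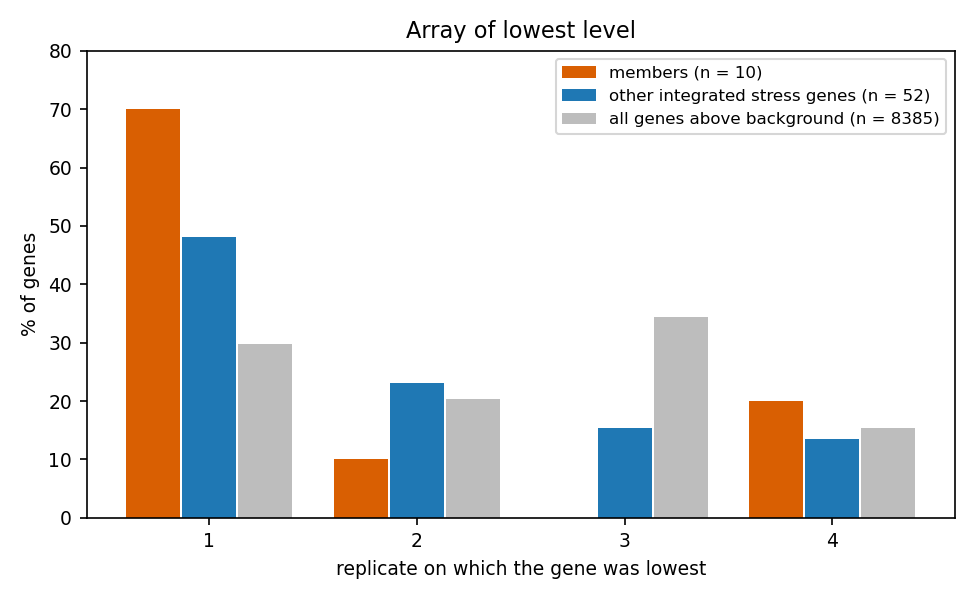
Share of genes (y axis, %) by the replicate on which each was lowest, for the 10 genes, 52 other genes of the integrated stress response and all 8385 genes above background. Replicate 1 holds 7 of the 10 and 25 of the 52, against 29.8% of all genes, and replicate 3 holds 0 of the 10, against 34.4%. These shares depend on the scaling: with median scaling 10.9% of all genes were lowest on replicate 3.

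The rest of the response was read from lists of 63 other genes, of which 61 were on the array. Of these, 52 were above background on all 4 arrays, as were 50.6% of all named genes. The same share of all named genes stands beside the count of each list below. The 52 genes had a median SD of 0.19, with single values from 0.03 to 0.62. Of the 52, 25 were lowest on replicate 1 (29.8% of all genes were), 12 on replicate 2, 8 on replicate 3 and 7 on replicate 4, and their median deviation was -0.11 on replicate 1 and 0.08 on replicate 4. With median scaling 15 were lowest on replicate 1, against 14.6% of all genes. Cars1, 1 of the 52, had a range of at least 1.

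All 10 genes upstream of ATF4 (the eIF2α kinases, the mitochondrial relay Oma1 and Dele1, phosphatase subunits and the initiation factors) were above background. The haem-sensing kinase gene Eif2ak1 was at 0.90, 0.82, 0.92 and 1.04 on replicates 1 to 4, a narrow spread, and the double-stranded RNA kinase gene Eif2ak2 at -3.01, -2.94, -2.75 and -2.55. Of 9 basic leucine zipper genes, 7 were above background on all arrays, Atf7 on 2 and Cebpa on none. Atf3, a stress-induced repressor, was at 0.39, 0.82, 0.66 and 1.102, lowest on replicate 1 and highest on replicate 4. Atf5, whose mRNA is translated under stress like that of Atf4, was at -0.62, -0.65, -0.87 and -0.45.

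Of 12 genes of amino acid synthesis, 10 were above background on all arrays, Cth on 3 and Cbs on none. Psph, which completes serine synthesis after Phgdh and Psat1, was at -1.35, -0.78, -0.57 and -0.80, lowest on replicate 1. So were Psat1, Phgdh on the probe that stands for it but not on its second probe, and 29.8% of all genes. Shmt2, the mitochondrial enzyme that converts serine to glycine, was at 1.96, 2.13, 1.89 and 1.99. Of 7 transporter genes on the array, 5 were above background on all arrays, Slc43a1 on 1 and Slc6a9 on none. The cystine transporter gene Slc7a11 was at -0.84, -0.53, -0.53 and -0.97, low on replicates 1 and 4.

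All 12 cytoplasmic tRNA synthetase genes, which charge tRNAs with amino acids and many of which are ATF4 targets, were above background. Aars1 was at 2.82, 2.90, 2.90 and 2.99, and Gars1 at 5.08, 5.06, 5.27 and 5.20. Cars1, the cysteine enzyme, was at -0.60, -0.17, -0.31 and -1.55, and its 1 spot lay in the dark area. After local centring Cars1 was at -0.74, -0.36, -0.43 and -1.07, still lowest on replicate 4. Of 11 effector genes on the array, 8 were above background on all arrays, and Fgf21, Vldlr and Stc2 on none. Ddit4, an inhibitor of mTORC1, was at -1.97, -1.73, -1.78 and -1.72, and the secreted stress cytokine gene Gdf15 at 0.97, 1.004, 0.94 and 1.38, with replicate 4 highest.

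Of 10 genes of the other arms of the unfolded protein response, 9 were above background on all arrays, and Ern1, which encodes the sensor IRE1α, on none. The chaperone gene Hspa5 was at 3.67, 3.44, 3.63 and 3.71, and Hsp90b1 at 1.01, 0.39, 0.92 and 0.33. Neighbours of the 2 spots of Hsp90b1 had a median difference of -0.33 between replicate 4 and the other arrays. The effect of position on its level was not tested.

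The other 52 genes were tested for a spread between the arrays larger than that of genes of like level, with limma's variance test over 8385 genes and Benjamini-Hochberg adjustment. Of the 52, 0 passed, with a lowest adjusted p of 0.259 in limma, for Cars1, and 3 had an unadjusted p under 0.05: Cars1, Mthfd2 and Cebpb. Among all genes tested 16 (0.191%) passed, and an unadjusted p under 0.05 was found for 483 (5.76%), so the share of the 52 was near that of all genes. The 3 genes are named for these values after they were seen. The 1 spot of Cars1 and 1 of the 2 spots of Mthfd2 lie in the dark area. Of the 10 spots of Cebpb 1 lies there, and Cebpb was lowest on replicate 2, inside the area and outside it. For Mthfd2 the gene's level, which averages both spots, was 2.94, 3.23, 3.48 and 2.61 on replicates 1 to 4.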

How the data were processed

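Gene expression in 4 exposed NR8383 cultures was read on 4 single-colour arrays, treated as 1 group by the treatment label with replicate numbers from the titles. Per the submitters' processing notes, images were read with Agilent Feature Extraction 11.0.1.1. The deposited values used are, per the file headers, the processed intensity of each spot with its error, the median pixel intensity, the local background intensity and the spot marks. The headers record background subtraction and spatial detrending inside the processed intensity, but no scaling between arrays. The dark area of replicate 4 was still present in that processed intensity.

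Control spots and spots marked as outliers were left out unless all spots of a probe were marked. The deposited intensity was put on a log2 scale and the array's own 75th percentile was subtracted, and repeat spots were averaged. A probe was above background where at least 50% of its spots used were marked so. Accessions were matched, without versions, to RefSeq gene names (GRCr8), which named 21109 of 45598 probes. Per the file headers the probes were placed on rn4, so no probe coordinates are given. Where a gene had several probes, the one detected on the most arrays, then the one of highest mean, stands for it. Promoters are RefSeq windows, found for all 10 genes.

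Spread was tested with R 4.3.3 and limma 3.58.1: variance between arrays against a prior fitted robustly as a trend on level (prior degrees of freedom 9.14), upper tail, Benjamini-Hochberg over 8385 genes, threshold 0.05. In data simulated for that test on 8385 genes it called 57 of 100 genes given 5 times the SD, 86 of 100 given 10 times and 3 of 8185 unchanged. The simulated noise was normal, independent between genes and drawn from the fitted prior, with no dark area. These counts therefore do not show how the test performs where those conditions fail. Local centring subtracts, on each array, the median deviation of spots above background within 10 rows and 5 columns.

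The 10 genes and the gene lists were chosen with earlier results of these data known. Named genes are the 10 with every probe, the first 2 measured of each list, list genes with a range of at least 1 log2 unit, and the 3 genes nearest to Ddit3 and to Cebpg in pattern. Other genes are named after their values were seen. Alternatives covered background correction, scaling, outlier marks, probe choice, detection, prior variance, local position and each replicate left out. The files hold no mean pixel intensity, so normexp correction used the median pixel intensity in its place.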

Additional observations from a re-analysis of the deposited data

Results flagged for a closer look

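Dixon's test for 1 array apart from the others was applied to 32 genes or probes, of which 4 were past its critical value, and chance gives about 1 in 20. Cebpg had a gap of 0.841 of its range below the other arrays, with replicate 4 at -0.24. Cebpg was chosen for this spread, so its gap restates that choice and cannot be read against the chance rate. Eme1 (gap 0.891, replicate 4 at -3.77) and Uckl1 (gap 0.854, replicate 4 at -0.59) were likewise low on replicate 4 and were picked for their likeness to Cebpg, so the same holds for them. The spots of these 3 genes lie in the area that was dark on replicate 4. Gdf15 had a gap of 0.854 above the other arrays, with replicate 4 at 1.38. Its spot had neighbours with a median difference of 0.09 between replicate 4 and the other arrays.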

How the results depend on the processing

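No paired analysis was possible because the 4 arrays form 1 group. The alternatives on position, and all counts of genes lowest on replicate 1, were chosen after seeing the data. Replicate 4 minus the mean of the other arrays moved for Ddit3 from -1.20 to -0.19 with local centring and to -0.36 with the wider window, and for Cebpg from -1.75 to -0.85. It lay between -1.59 and -1.20 for Ddit3 and between -2.03 and -1.75 for Cebpg under the other scalings, corrections and probe rules, and between -1.40 and -1.01 and between -1.82 and -1.67 with 1 of replicates 1 to 3 left out. The count of the 10 genes with a range of at least 1 was 2, and 0 with local centring; with 1 replicate left out it lay between 0, without replicate 4, and 2. The count lowest on replicate 4 was 2 (15.4% of all genes), against 5 with median scaling (32.9%), 4 with quantile normalization (24.5%) and 4 with outlier spots kept (24.3%). In these settings the share of all genes rose too, but elsewhere the count and the share did not move together. With normexp correction the count was 3 and the share 12.7%. It stayed at 2 with the 75th percentile over probes above background on all arrays (21.9%) and with local centring (25.9%). The count ran from 2 to 6 with 1 array left out, 6 being without replicate 1. For this and the other counts with 1 array left out, the share of all genes was not computed. With fewer arrays, each array is more often the lowest for any gene. The count lowest on replicate 1 was 7 (29.8% of all genes), against 4 with median scaling (14.6%) and 6 to 8 otherwise. With all arrays kept, the share of all genes in those other settings ran from 23.1% to 29.9%. Among the other 52 genes the count was 25, against 15 with median scaling and 22 to 30 otherwise. Excess spread among those genes passed in 0, and in 1, Cars1, after normexp correction of the median pixel signal (limma adjusted p 0.0143) and with median scaling (0.0254); the lowest adjusted p over these genes otherwise ran from 0.105 to 0.982. Over all genes 16 passed, against 156 with normexp, 118 with median scaling, 25 with outlier spots kept, 5 with a constant prior, 10 with a prior not fitted robustly and 4 without replicate 2. All 10 genes stayed above background under every detection rule and omission tried. Mean levels depended on the reference and on the probe rule. Every level was higher with median scaling, that of Atf4 at 11.26 against 4.57. With the mean over probes Phgdh moved from 4.84 to 2.63 and Psat1 from 3.73 to -0.03, while the others of the 10 were unchanged. The number of arrays, 4 on 1 slide, limits the precision, and single-spot probes such as Ddit3 and Cebpg give no reading at a second place.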
